A study of Mus musculus with 12 samples.

Results

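The Th0 culture of experiment 2 was set beside the Th1 culture and the 2 Th2 cultures of the same experiment. These 4 cultures were the cultured samples labelled experiment 2, out of 12 samples in the series. The other 8 were a Th1 and a Th2 culture of experiment 1 and T cells recovered from lesional skin. Transcripts were counted on the NanoString mouse Immunology panel, in which color-coded probes are hybridized to transcripts and counted one by one without amplification. Of 547 endogenous genes on the panel, 424 exceeded the detection limit in 1 or more of these cultures, and these are the genes described here. The limit was the mean plus 2 SDs of the negative control probes of each sample.

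All 4 cultures held DO11 T cells, CD4+ cells that carry a transgenic receptor (recognized by the KJ1-26 antibody) for an ovalbumin peptide. They were activated with ovalbumin-pulsed irradiated spleen cells, expanded with IL-2, reactivated with a further batch of pulsed splenocytes and harvested on day 10. The Th0 culture received no skewing reagents according to the methods. The Th1 culture received IFNγ with an antibody to IL-4. The Th2 cultures received IL-4 with antibodies to IFNγ and IL-12p40, and 1 was labelled male and 1 female. Neither the sex of the Th0 and Th1 donors nor the age or number of donors is given in the sources used here. The labels also do not say whether the donors carried the 4get IL-4 reporter that some cultures of the study had. A mixture of cells committed to different lineages and a population of uncommitted cells cannot be told apart in bulk RNA, nor can fewer cells of a type and less RNA per cell.

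Naive CD4+ T cells take on effector programmes according to the cytokines present at activation. IL-12 and IFNγ act through STAT4 and the transcription factor T-bet to give Th1 cells, which make IFNγ. IL-4 acts through STAT6 and GATA3 to give Th2 cells, which make IL-4, IL-5 and IL-13 and display the IL-33 receptor ST2. T-bet and GATA3 restrain each other. Cells activated without added skewing cytokines are called Th0, and such cultures are known to hold cells that make cytokines of either lineage.

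Endogenous counts summed to 451410 in Th0, 417917 in Th1, and 464137 and 422557 in the male and female Th2 cultures. Between 362 and 403 genes per culture lay above the limit (364 in Th0), and the limits were 14.8 to 21.7 counts. The T cell genes Cd3d, Cd3e, Cd247 and Cd4 were high in all 4 cultures, with Cd4 at 1295 scaled counts in Th0, 871 in Th1, and 1180 and 1477 in male and female Th2. Counts were scaled by 7 housekeeping genes, whose geometric mean was 10611 counts in Th0, 15129 in Th1, and 8477 and 7231 in male and female Th2. The spiked positive controls ranked the cultures in the same order, with sums of 43021 in Th0, 60592 in Th1, and 32125 and 28205 in male and female Th2. There was 1 Th0 and 1 Th1 sample, so no p-value is given and no difference of Th0 or Th1 from another culture could be set against replicates of either. The 2 Th2 cultures differed from each other by a median of 0.21 on the log2 scale without regard to sign, and the 90th percentile was 0.61. A fold limit of 2 was used throughout. Between these Th2 cultures 12 of 424 genes passed it, 3 higher in the male culture (0.708% of genes) and 9 lower (2.12%).

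Of the 424 genes, 133 were at least 2-fold higher in both Th2 cultures than in Th1 (31.4%) and 19 were at least 2-fold lower (4.48%). These numbers depended on the scaling. They were 122 and 19 with positive controls, 54 and 47 with TMM factors, 54 and 47 with DESeq2 size factors, 36 and 70 with total counts, and 39 and 67 with the Cd3 chain genes. Among the 133 genes, Th0 lay nearer Th1 on the log2 scale for 73 and nearer Th2 for 60, so that 54.9% were nearer Th1. Among the 19 genes, Th0 lay nearer Th1 for 10 and nearer Th2 for 9. The median position of Th0, counted as 0 at Th1 and 1 at the Th2 mean, was 0.47 over the 133 genes and 0.46 over the 19. With scaling by the 3 genes of the CD3 chains (Cd3d, Cd3e and Cd247) instead, called Cd3 chain scaling here, 64.1% of genes higher in Th2 and 26.9% of genes higher in Th1 had Th0 nearer Th1.

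Each gene was then given a place. A gene sat with Th1 when Th0 was under 2-fold from Th1 and at least 2-fold from both Th2 cultures on one side, which held for 51 genes (12% of 424). A gene sat with Th2 when Th1 stood at least 2-fold off both Th2 cultures and off Th0, while Th0 was under 2-fold from the Th2 mean. This held for 42 genes (9.91%). Th0 lay between, at least 2-fold from each, for 13 genes (3.07%). It lay at least 2-fold below all the others for 3 genes (0.708%) and at least 2-fold above all the others for 0 genes (0%). The remaining 315 genes (74.3%) are called not separated, which means only that Th0 met none of these rules. They include genes for which Th1 stood more than 2-fold off both Th2 cultures, such as Cxcr6 and Socs3. Compared with Th1 alone, Th0 was at least 2-fold higher for 57 genes (13.4%) and lower for 16 (3.77%). Compared with both Th2 cultures, it was higher for 8 (1.89%) and lower for 59 (13.9%).

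**Figure D1:**
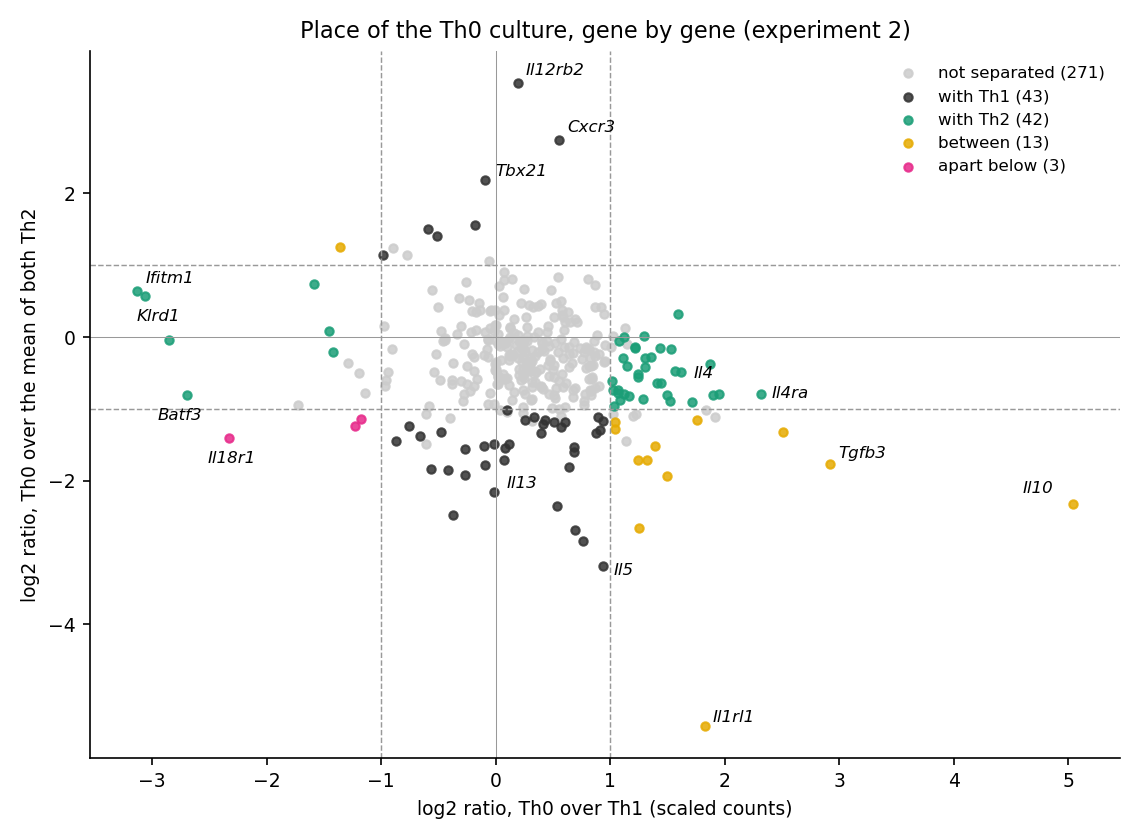
Each point is a gene, with the log2 ratio of Th0 to Th1 on the horizontal axis and of Th0 to the mean of both Th2 cultures on the vertical axis, from housekeeping-scaled counts. Dashed lines mark 2-fold, colors mark the place of Th0, and 8 genes placed with Th1 and 44 not separated are not drawn because Th0 and a culture it is set against were both at or below the limit. Il12rb2, Cxcr3 and Tbx21 lie at the top near the center line, and Il10 and Il1rl1 lie farthest from the other genes.

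These places depended on the scaling. The median log2 ratio of Th0 over Th1 was 0.30 with housekeeping genes and 0.28 with positive controls. It was -0.07 with TMM factors and -0.05 with DESeq2 size factors, which both hold the bulk of genes level between samples, and it was -0.32 with total counts and -0.49 with the Cd3 chain genes. For Th0 over the Th2 mean the medians were -0.40, -0.35, -0.02, 0.00, 0.01 and -0.21 in the same order. Under all 6 scalings 20 genes kept their place with Th1, 9 kept their place with Th2, 3 stayed between and 0 stayed below all the others. The genes that kept their place are described first within each group, and the number of alternative scalings that kept the place is given for the others that matter.

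**Figure D2:**
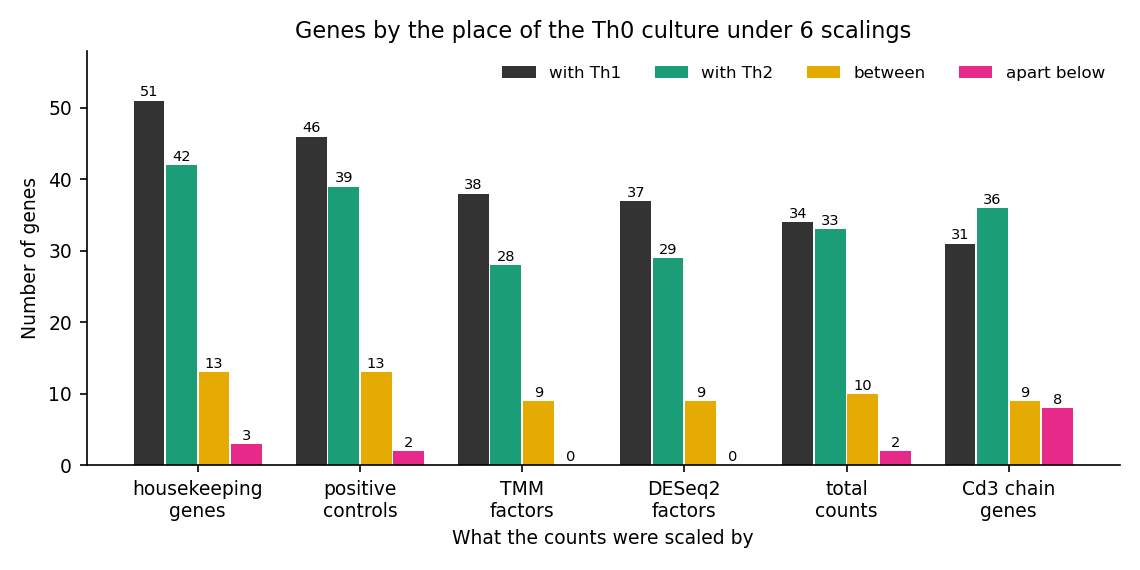
Bars count the genes in each place of Th0, out of 424, under 6 ways of scaling the counts. With Th1 ran from 31 to 51 genes and with Th2 from 28 to 42, and 0 to 8 genes lay below all the other cultures.

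In the Th0 culture Tbx21, Il12rb2 and Cxcr3 were under 2-fold from their Th1 level, which did not hold for every gene of the Th1 programme. Tbx21, which encodes T-bet, was at 297 scaled counts in Th0, 317 in Th1, and 58.7 and 73.0 in male and female Th2. Il12rb2, which encodes the inducible subunit of the receptor for IL-12, was at 639 in Th0, 560 in Th1, and 45.8 and 66.1 in male and female Th2. Cxcr3, a chemokine receptor that T-bet induces, was at 910 in Th0, 619 in Th1, and 112 and 167 in male and female Th2. For all 3 genes the Th0 value lay far above both Th2 values. Th0 was 4.53-fold above the Th2 mean for Tbx21, 11.6-fold for Il12rb2 and 6.67-fold for Cxcr3. These 3 genes kept their place with Th1 under every scaling, and over the 6 scalings the log2 ratio of Th0 to Th1 ran from -0.88 to -0.10 for Tbx21, from -0.59 to 0.19 for Il12rb2 and from -0.23 to 0.55 for Cxcr3. Lair1, an inhibitory receptor for collagen, showed the same pattern, at 86.4 in Th0, 98.1 in Th1, and 22.3 and 38.6 in male and female Th2.

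Most other genes of the Th1 programme were not separated. Of 17 list members on the panel 16 were above the limit, 3 sat with Th1, 1 sat with Th2 (Il12rb1), 1 lay below all the others (Il18r1) and 11 were not separated, beside 12% with Th1, 9.91% with Th2 and 74.3% not separated over all genes. Ifng, which defines Th1 cells, did not exceed the limit in any of the 4 cultures. It had 10 raw counts in Th0, 19 in Th1, and 10 and 4 in male and female Th2. These are RNA counts only, and the paper reports IFNγ protein in its Th1 cells by flow cytometry and in Th1 culture fluid by ELISA. Without Ifng, the list describes mostly regulators and receptors here, together with Tnf, Lta and Ccl5, whose products are secreted. Its median log2 ratio was 0.06 for Th0 over Th1 and 0.41 for Th0 over the Th2 mean, beside 0.30 and -0.40 over all genes. Stat4, which carries the IL-12 signal, was at 268 in Th0, 184 in Th1, and 132 and 172 in male and female Th2. Ifngr1, the ligand-binding chain of the IFNγ receptor, was at 4685 in Th0, 2574 in Th1, and 2292 and 3487 in male and female Th2. For both genes Th0 had the highest value by less than the 2-fold limit, and for Stat4 Th1 was above Th0 with total counts (log2 ratio of Th0 to Th1 -0.081) and under Cd3 chain scaling (-0.24).

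Eomes, a T-box factor related to T-bet, was at 71.3 in Th0, 122 in Th1, and 29.4 and 35.8 in male and female Th2. Runx3, a partner of T-bet, was at 142 in Th0, 278 in Th1, and 126 and 129 in male and female Th2, so that Th0 was near Th2 for this factor (log2 ratio of Th0 to Th1 -0.97). Il18r1, a chain of the IL-18 receptor that Th1 cells display, was at 43.2 in Th0, 217 in Th1, and 90.5 and 143 in male and female Th2. Th0 was lowest for Il18r1, 5.03-fold below Th1 and 2.64-fold below the Th2 mean.

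Gata3 lay midway in Th0. It was at 3324 scaled counts in Th0, 1788 in Th1, and 7148 and 7222 in male and female Th2. Th0 was 1.86-fold above Th1 and 2.16-fold below the Th2 mean, so the gene fell just inside the limits that placed it with Th1, and 1 of 5 alternative scalings kept that place. A contrast of 2 genes within the same cultures does not move with any scaling. The log2 ratio of Tbx21 to Gata3 was 0.99 lower in Th0 than in Th1 (difference -0.99), and 3.44 and 3.14 higher in Th0 than in male and female Th2. The same contrast between the Th2 mean and Th1 was -4.28. On that contrast the Th0 culture stood closer to Th1 than to either Th2 culture.

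Il4ra and Maf stood near Th2 in Th0. Il4ra, the receptor chain that binds IL-4, was at 8836 in Th0, 1778 in Th1, and 14344 and 16195 in male and female Th2. Maf, a factor that activates the Il4 gene, was at 879 in Th0, 227 in Th1, and 1397 and 1676 in male and female Th2. Th0 was 4.97-fold above Th1 for Il4ra and 3.87-fold for Maf, and under 2-fold below the Th2 mean for both, and both genes kept their place with Th2 under every scaling. Relative to Gata3 in the same cultures, the log2 ratio of Th0 to Th1 was larger by 1.42 for Il4ra and by 1.06 for Maf. Stat6, which carries the IL-4 signal, was at 765 in Th0, 815 in Th1, and 848 and 625 in male and female Th2, and set no culture apart.

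**Figure D3:**
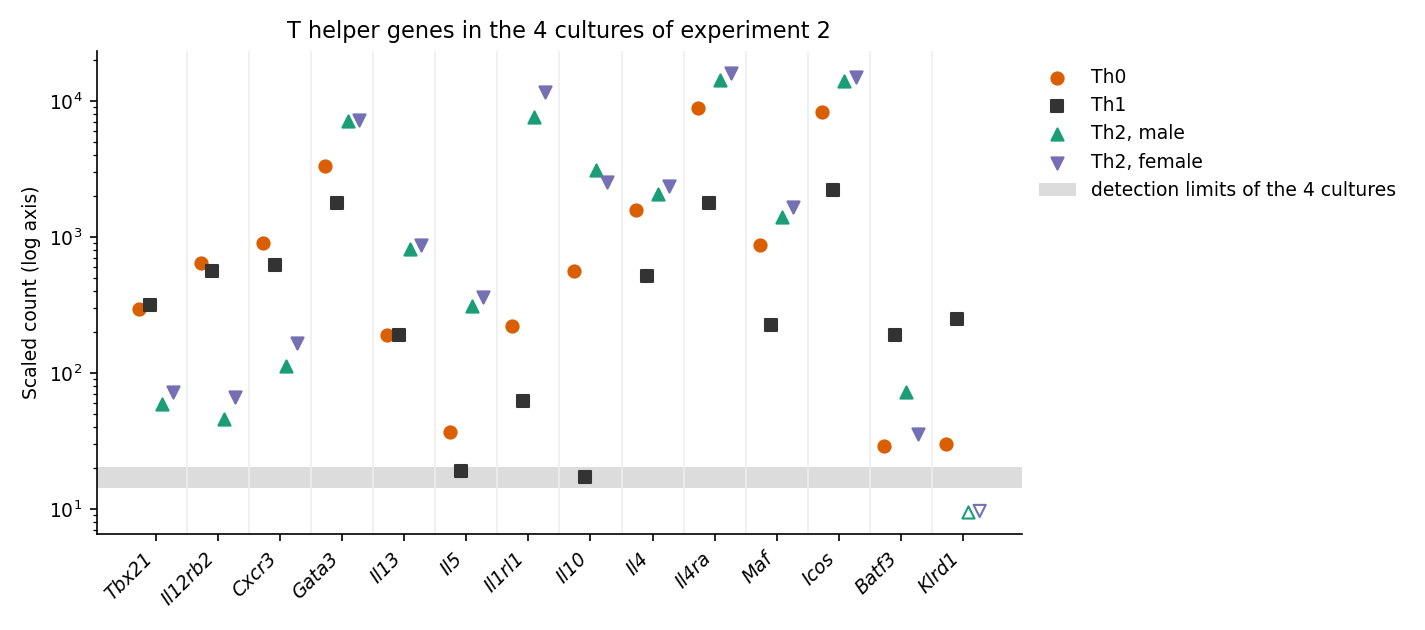
Scaled counts of 14 genes in Th0, Th1, male Th2 and female Th2, on a log axis, with 1 marker per culture. Open markers lie at or below the detection limit of their culture, and the gray band spans the limits of the 4 cultures. Th0 stands at the Th1 level for Tbx21, Il12rb2, Cxcr3 and Il13, near the Th2 level for Il4, Il4ra, Maf and Icos, and between for Il10 and Il1rl1.

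Among the cytokine genes, Il4 sat with Th2 in Th0, while Il13 and Il5 sat with Th1. Il4, the cytokine that drives Th2 differentiation, was at 1577 scaled counts in Th0, 513 in Th1, and 2069 and 2357 in male and female Th2. Il13, which acts on epithelium and smooth muscle, was at 189 in Th0, 190 in Th1, and 811 and 872 in male and female Th2. Il5, the growth factor of eosinophils, was at 36.6 in Th0, 19.1 in Th1, and 310 and 361 in male and female Th2. Th0 therefore lay near Th2 for Il4 and at or near Th1 for Il13 and Il5. For Il4 it was 3.07-fold above Th1 (counting interval of the ratio 2.82 to 3.35) and 1.40-fold below the Th2 mean. For Il13 its ratio to Th1 was 0.99 (0.82 to 1.19), and it was 4.46-fold below the Th2 mean. For Il5 the ratio to Th1 was 1.92 (1.16 to 3.21), and Th0 was 9.14-fold below the Th2 mean. These intervals are exact 95% intervals that cover counting error only.

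Il13 and Il5 kept their place under all 6 scalings, and Il4 kept its place with Th2 under 3 of 5 alternatives. The contrast between the genes does not depend on scaling. The log2 ratio of Il4 to Il13 was 1.63 higher in Th0 than in Th1, and 1.71 and 1.63 higher than in male and female Th2, while the Th2 mean and Th1 differed by -0.04. The contrast of Il4 to Il5 was 0.68 higher in Th0 than in Th1, and 2.69 and 2.72 higher than in male and female Th2. Here the Th2 mean and Th1 also differed, by -2.03, so Th0 stood nearer Th1 on this contrast. The promoters of the 3 genes are shown because these genes lie near each other on 1 chromosome and Il4 took another place than Il13 and Il5. In the RefSeq annotation of mouse assembly GRCm38.p6 they lie on chromosome 11 in the order Il4, Il13, a pseudogene, Rad50 and Il5. Each window runs from 250 bases before to 50 bases after the start of the gene and is printed 5′ to 3′ along the gene, with capitals at the core GATA motif on either strand (GATA or TATC). Their positions in GRCm38.p6 are chr11:53618616-53618915 on the minus strand for Il4, chr11:53634653-53634952 on the minus strand for Il13 and chr11:53720544-53720843 on the plus strand for Il5.
Il4 promoter: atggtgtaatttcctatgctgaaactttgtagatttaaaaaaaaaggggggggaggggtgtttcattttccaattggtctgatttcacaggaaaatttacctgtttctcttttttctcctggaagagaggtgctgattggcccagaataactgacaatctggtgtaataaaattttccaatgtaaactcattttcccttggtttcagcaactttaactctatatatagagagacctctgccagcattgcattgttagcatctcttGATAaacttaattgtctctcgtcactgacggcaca
Il13 promoter: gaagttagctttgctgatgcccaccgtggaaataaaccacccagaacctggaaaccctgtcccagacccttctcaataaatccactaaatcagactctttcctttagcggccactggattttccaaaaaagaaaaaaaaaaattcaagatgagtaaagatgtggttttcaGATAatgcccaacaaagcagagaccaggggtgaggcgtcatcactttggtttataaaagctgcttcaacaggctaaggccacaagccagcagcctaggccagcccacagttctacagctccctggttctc
Il5 promoter: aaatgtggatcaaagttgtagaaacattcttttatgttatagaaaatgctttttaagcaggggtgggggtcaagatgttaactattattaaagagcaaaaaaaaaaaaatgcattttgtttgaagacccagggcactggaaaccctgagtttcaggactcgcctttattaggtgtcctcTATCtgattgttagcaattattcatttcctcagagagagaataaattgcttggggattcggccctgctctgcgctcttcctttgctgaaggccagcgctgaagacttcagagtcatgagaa

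Each window held 1 GATA motif, and in Il4 it lay after the start of the gene. The letters GGAAA, the core that NFAT factors bind, occurred 5 times in the Il4 window, 4 times in that of Il13 and 2 times in that of Il5, counted over both strands. The letters TTCNNNNGAA, a STAT6 type of site, occurred 1 time in the Il4 window and 0 times in the windows of Il13 and Il5. Of 32851 mouse promoter windows of the same length, 57.9% held GATA, 61.3% held GGAAA and 6.95% held TTCNNNNGAA. A match of letters is a description of the window and not a binding site.

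The other effector cytokine genes were mostly low. Of 18 on the list, 14 were above the limit in at least 1 culture: 4 sat with Th1 (Il5, Il13, Il21 and Tnfsf11), 1 with Th2 (Il4) and 1 between (Il10), and 8 were not separated. Over all genes the shares were 12% with Th1, 9.91% with Th2 and 3.07% between. Il2, Il17a, Il22 and Ifng were at or below the limit in all 4 cultures. Il21, a cytokine of follicular helper and Th17 cells, was at 201 in Th0, 186 in Th1, and 691 and 459 in male and female Th2. Tnfsf11, which encodes RANKL, was at or below the limit in Th0 and at 21.7 in Th1, and 79.9 and 109 in male and female Th2. Tnf was at 31.0 in Th0, 75.7 in Th1, and 34.1 and 46.8 in male and female Th2, so that Th0 was 2.44-fold below Th1. Csf2, which encodes GM-CSF, and the lymphotoxin gene Ltb differed by less than 2-fold between Th0 and each other culture.

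Some genes that mark committed Th2 cells were far below the Th2 level in Th0. Il1rl1, the gene of ST2 (the receptor for IL-33), was at 222 scaled counts in Th0, 62.5 in Th1, and 7657 and 11586 in male and female Th2. Il10, an anti-inflammatory cytokine, was at 563 in Th0, 17.1 in Th1, and 3130 and 2533 in male and female Th2. Both genes lay between, and both kept that place under every scaling. For Il1rl1 Th0 was 3.54-fold above Th1 and 42.5-fold below the Th2 mean, which put it near Th1 on the log2 scale. For Il10 Th0 was 32.9-fold above Th1 (counting interval 22.2 to 50.8, on 26 raw counts in Th1) and 5.0-fold below the Th2 mean.

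Tgfb3, a form of TGF-β, was at 115 in Th0, 15.1 in Th1, and 276 and 551 in male and female Th2. Lif, a cytokine of the IL-6 family, was at 390 in Th0, 164 in Th1, and 2474 and 2460 in male and female Th2. Il6st, the shared receptor chain of that family, was at 81.7 in Th0, at or below the limit in Th1, and at 223 and 186 in male and female Th2. Il2ra, the high-affinity IL-2 receptor chain that marks activated and regulatory T cells, was at 12334 in Th0, 5213 in Th1, and 41104 and 39493 in male and female Th2. Tnfrsf9, the costimulatory receptor 4-1BB, was at 74.2 in Th0, 26.3 in Th1, and 250 and 324 in male and female Th2. All 5 genes lay between, with Th0 above Th1 and below both Th2 cultures, and 1 to 3 of the 5 alternative scalings kept that place.

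A further set of genes was high in Th2 and at its Th1 level in Th0. Of the 51 genes that sat with Th1, 44 were higher in Th2 than in Th1 and 7 lower, and 16 of the 20 that kept the place were higher in Th2. Unlike the place with Th2, this place did not require Th1 to stand 2-fold off Th2. For Cd44, Pdcd1lg2, Cd69 and Nfkbia the log2 ratio of the Th2 mean to Th1 was only 0.48 to 0.84. Lilrb4, an inhibitory receptor, was at 405 scaled counts in Th0, 239 in Th1, and 3065 and 2731 in male and female Th2. Il1r2, the decoy receptor of IL-1, was at 260 in Th0, 161 in Th1, and 2113 and 1318 in male and female Th2. Folr4, which encodes a folate receptor family protein found on regulatory T cells, was at 179 in Th0, 124 in Th1, and 1046 and 807 in male and female Th2. Ikzf4, which encodes the factor Eos, was at 86.4 in Th0, 55.3 in Th1, and 273 and 336 in male and female Th2. For each of these genes both Th2 values lay above the Th0 and Th1 values. Th0 was 7.14-fold below the Th2 mean for Lilrb4, 6.42-fold for Il1r2, 5.12-fold for Folr4 and 3.50-fold for Ikzf4.

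For some of these genes neither Th0 nor Th1 was above the limit, and the fold is then a lower bound against the Th0 limit. Il1r1, the signaling receptor of IL-1, was at 109 and 106 in male and female Th2, at least 6.42-fold above Th0. The calprotectin genes S100a8 and S100a9, which neutrophils express strongly, were at 65.8 and 404 and at 52.9 and 196 in male and female Th2. The bounds were at least 9.72-fold for S100a8 and at least 6.07-fold for S100a9. The 2 Th2 cultures differed from each other by more than 2-fold for both genes. Ccl24, an eosinophil attractant, was at 105 and 70.2 in male and female Th2, at least 5.11-fold above Th0. Ccl22, a ligand of the receptor CCR4, was above the limit in all 4 cultures, at 52.6 in Th0, 56.0 in Th1, and 140 and 233 in male and female Th2.

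The 9 genes that kept their place with Th2 were of 2 kinds, 4 higher and 5 lower in Th2 than in Th1. Il4ra and Maf were among the higher ones. Icos, a costimulatory receptor, was at 8267 scaled counts in Th0, 2223 in Th1, and 14056 and 14995 in male and female Th2. Xbp1, a factor of the unfolded protein response, was at 6110 in Th0, 1671 in Th1, and 7342 and 8593 in male and female Th2. Th0 was 3.72-fold above Th1 for Icos and 3.66-fold for Xbp1. Batf, a factor that acts with IRF4 in activated T cells, was at 3617 in Th0, 1261 in Th1, and 6400 and 7044 in male and female Th2, and kept its place under 3 of 5 alternatives. Its partner Irf4 took another place, at 745 in Th0, 799 in Th1, and 2248 and 2023 in male and female Th2.

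A set of 5 genes was lower in Th0 and in both Th2 cultures than in Th1 under every scaling. Batf3 was at 29.1 scaled counts in Th0, 189 in Th1, and 72.8 and 35.8 in male and female Th2, with Th0 6.49-fold below Th1. Batf3 was one of the genes chosen to mark these cells together with Gata3 and Il4. Unlike those, it was highest in Th1, and in experiment 1 it was at or below the limit in Th2 and at 120 in Th1. Its Th2 values differed by 2-fold from each other, and the counting interval of the ratio of Th0 to female Th2 held 1 (ratio 0.81, interval 0.47 to 1.43). The natural killer receptor gene Klrd1 was at 30.0 in Th0, 251 in Th1, and at or below the limit in both Th2 cultures, and Klrc1, whose protein pairs with that of Klrd1, was at 19.7 in Th0 and 143 in Th1 and again at or below the limit in both Th2 cultures. Th0 was 8.35-fold below Th1 for Klrd1 and 7.25-fold for Klrc1, and its values were close to the limit of 16.8 scaled counts. Cd9, a tetraspanin, was at 66.6 in Th0, 182 in Th1, and 58.7 and 67.5 in male and female Th2. Cd40lg, through which helper T cells activate B cells, was at 64.8 in Th0, 174 in Th1, and 68.1 and 82.6 in male and female Th2.

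Ifitm1, an interferon-inducible gene, had the lowest log2 ratio of Th0 to Th1 of all genes (-3.13). It was at 359 in Th0, 3149 in Th1, and 193 and 277 in male and female Th2, with Th0 8.76-fold below Th1. Ifitm1 kept its place with Th2 under 2 of 5 alternatives. Under the others it lost the place because Th0 then stood over 2-fold above the Th2 mean. Ifitm1 was the only one of 10 type I interferon-stimulated genes above the limit that was placed, and the other 9 were not separated, where 74.3% of all genes were not separated. Mx1, for example, was at 49.7 in Th0, 59.2 in Th1, and 78.7 and 78.5 in male and female Th2. Stat2 was at 358 in Th0, 239 in Th1, and 261 and 318 in male and female Th2.

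Lineage transcription factors took more than 1 place. Of 23 on the panel 22 were above the limit, with 5 placed with Th1 (Tbx21, Gata3, Irf4, Ahr and Ikzf4), 4 with Th2 (Maf, Batf, Batf3 and Ikzf3) and 13 not separated, beside 12%, 9.91% and 74.3% of all genes in those places. Foxp3, the factor of regulatory T cells, was at or below the limit in all 4 cultures. Ahr, a ligand-activated factor, was at 26.3 in Th0, at or below the limit in Th1, and at 62.3 and 70.2 in male and female Th2. Ikzf3, which encodes Aiolos, was at 1047 in Th0, 385 in Th1, and 1667 and 1599 in male and female Th2. Prdm1, which encodes Blimp-1, was at 886 in Th0, 605 in Th1, and 1243 and 1488 in male and female Th2. Bcl6, the factor of follicular helper cells, was at 55.4 in Th0, 30.3 in Th1, and 65.8 and 67.5 in male and female Th2. For Prdm1 and Bcl6 Th0 stood between Th1 and Th2 by less than 2-fold at each step, an order that other scalings turned (log2 ratios down to -0.23 for Th0 over Th1 in Prdm1 and up to 0.14 for Th0 over the Th2 mean in Bcl6).

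Genes of the Th2 programme fell on both sides. All 20 list members were above the limit in at least 1 culture, with 5 placed with Th1 (Gata3, Il5, Il13, Irf4 and Ccl24), 6 with Th2 (Il4, Il4ra, Maf, Il17rb, Ccr4 and Batf3), 2 between (Il10 and Il1rl1) and 7 not separated. Batf3 was lower in Th2 than in Th1 (log2 ratio of Th2 to Th1 -1.89). For Ccr4 and Irf4 that ratio was 1.98 and 1.42 in experiment 2 but -0.35 and -0.46 in experiment 1. Over all genes 12% sat with Th1, 9.91% with Th2 and 3.07% between, and 74.3% were not separated. The median log2 ratio of the list was 0.95 for Th0 over Th1 and -0.81 for Th0 over the Th2 mean, beside 0.30 and -0.40 over all genes. Il17rb, the IL-25 receptor chain, was at 42.2 in Th0, at or below the limit in Th1, and at 49.3 and 70.2 in male and female Th2. Of 16 chemokine receptor genes above the limit, 3 sat with Th1, 2 with Th2 and 1 between, which is near the 12%, 9.91% and 3.07% of all genes. Cxcr6, a receptor that directs T cells to skin and liver, was at 3204 in Th0, 2153 in Th1, and 6406 and 7314 in male and female Th2. With housekeeping scaling both Th2 values were more than 2-fold above that of Th1, but Th0 met no rule for a place. Ccr8, a receptor of Th2 and skin-homing cells, was at 21.6 in Th0, 32.9 in Th1 and 179 in male Th2, and at or below the limit in female Th2, so that the Th2 cultures gave no common level for it.

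**Figure D4:**
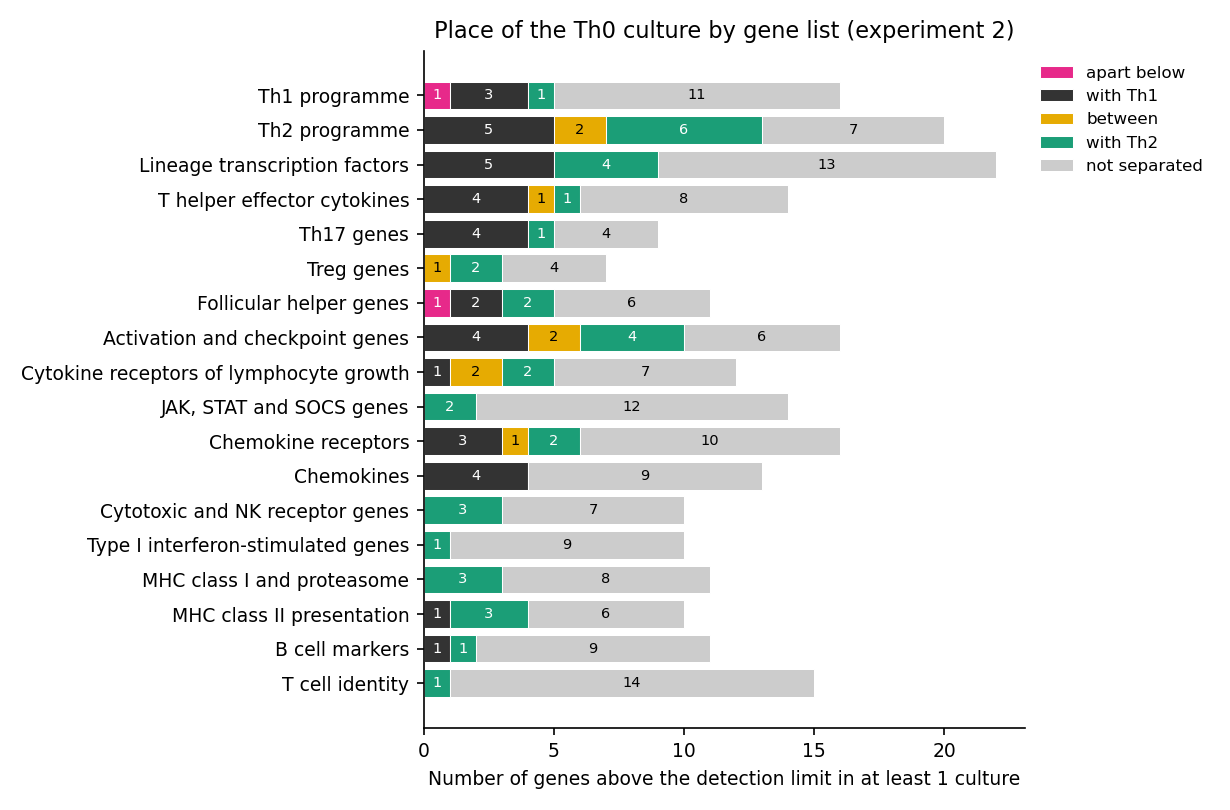
Bars count the genes of 18 lists that exceeded the limit in 1 or more of the 4 cultures, split by the place of Th0. The Th2 programme, lineage factors, and activation and checkpoint genes hold genes with Th1 and genes with Th2, and 14 of 15 T cell identity genes were not separated.

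Of 16 activation and checkpoint genes above the limit, 4 sat with Th1, 4 with Th2, 2 between and 6 were not separated, where 12%, 9.91%, 3.07% and 74.3% of all genes took those places. Tigit, an inhibitory receptor, was at 790 in Th0, 293 in Th1, and 938 and 826 in male and female Th2. Cd44, an adhesion receptor of activated and memory T cells, was at 204 in Th0, 344 in Th1, and 483 and 475 in male and female Th2. Bcl2, a survival factor, was at 506 in Th0, 214 in Th1, and 659 and 832 in male and female Th2. The places of these 3 genes were kept under 1 of 5 alternative scalings. Of 14 JAK, STAT and SOCS genes, 2 feedback inhibitors of cytokine signaling sat with Th2 (9.91% of all genes did) and 12 genes were not separated (74.3%). Cish was at 460 in Th0, 140 in Th1, and 821 and 904 in male and female Th2. Socs1 was at 3554 in Th0, 1456 in Th1, and 6487 and 6497 in male and female Th2. Socs3 had the same order, at 336 in Th0, 88.9 in Th1, and 606 and 864 in male and female Th2.

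Cytotoxic and natural killer receptor genes were placed in 3 of 10 cases, all with Th2 and all lower there than in Th1 (Klrc1, Klrd1 and Klrk1), where 9.91% of all genes sat with Th2. The other 7 were not separated, near the 74.3% of all genes. Gzma, which encodes granzyme A, was among the highest genes of every culture, at 30138 in Th0, 16828 in Th1, and 43415 and 47472 in male and female Th2. It was not separated. The follicular helper gene Sh2d1a, which encodes the adaptor SAP, was higher in Th0 and Th1 than in Th2, at 1664 in Th0, 2381 in Th1, and 538 and 737 in male and female Th2.

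Only 3 genes set Th0 below every other culture, and none of them kept that place under all scalings. Besides Il18r1 these were Btla and Cd80. Btla, an inhibitory receptor, was at 34.7 in Th0, 78.3 in Th1, and 75.2 and 78.5 in male and female Th2. Cd80, a costimulatory ligand, was at 28.2 in Th0, 65.8 in Th1, and 67.0 and 66.1 in male and female Th2. The raw counts in Th0 were 37 for Btla and 30 for Cd80. For each of the 3 genes the place was kept under 1 of 5 alternative scalings. Under Cd3 chain scaling, 8 genes were below all the others.

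Detection was also compared between the cultures. Of the 424 genes, 335 were above the limit in all 4 cultures. Th0 shared 14 genes with both Th2 cultures that were not above the limit in Th1, among them Il17rb, Il6st, Il3, Il6 and Ahr. It shared 3 with Th1 that were not above the limit in either Th2 culture (Klrc1, Klrd1 and Klrk1). These numbers are not on equal terms, because the limit was highest in Th1. It was 21.7 raw counts there, 17.9 in Th0, and 17.0 and 14.8 in male and female Th2. For Il3 and Il6 the log2 ratio of Th0 to the Th1 limit was only 0.32 and 0.46. A further 15 genes were above the limit in both Th2 cultures but not in Th0 or Th1. Cd34 and Ctsg were above the limit in Th0 alone, at 19 and 23 raw counts against a limit of 17.9. The counts of these 2 genes in the other cultures were 8 to 18.

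Markers of B cells and of MHC class II presentation, which the antigen-presenting spleen cells carry, were lowest in Th1, intermediate in Th0 and highest in Th2 with housekeeping scaling. The median over all genes had that order too with this scaling (log2 ratio 0.30 for Th0 over Th1 and -0.40 for Th0 over the Th2 mean). The reactivating splenocytes were not measured apart. Of 13 B cell markers on the panel 11 were above the limit, and their scaled counts summed to 2608 in Th0, 1573 in Th1, and 4257 and 3921 in male and female Th2. Cd79b, a chain of the B cell receptor, was at 812 in Th0, 434 in Th1, and 1429 and 1180 in male and female Th2. The 10 MHC class II presentation genes, all above the limit, summed to 11333 in Th0, 5876 in Th1, and 21053 and 19481 in male and female Th2. Under the 6 scalings the log2 ratio of these sums in Th0 over Th1 ran from -0.05 to 0.73 for B cell markers, below 0 with the Cd3 chain genes only, and from 0.16 to 0.95 for MHC class II genes. For Th0 over either Th2 culture it ran from -0.71 to -0.12 for B cell markers and from -0.89 to -0.32 for MHC class II genes. Myeloid and dendritic cell markers were low, with 9 of 21 above the limit and sums of 389 in Th0, 337 in Th1, and 580 and 676 in male and female Th2, and the defining markers Cd14 and Csf1r were at or below the limit in all 4 cultures. Their part in the place of Il1r1, S100a8, Cd80, H2-Ab1, Cd74 and other genes that these cells express was not tested.

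Across genes, Th0 stood nearer to Th1 and to each Th2 culture than either Th2 culture stood to Th1. Distance was taken as the SD over genes of the log2 ratio of 2 cultures, which no scaling factor moves, for 323 genes above the limit in all 6 cultures of the series. It was 0.742 between Th0 and Th1, and 0.840 and 0.811 between Th0 and male and female Th2. The male and female Th2 cultures stood at 1.25 and 1.24 from Th1. The male and female Th2 cultures stood at 0.322 from each other. Pearson's r of log2 counts over the same genes was 0.944 between Th0 and Th1, and 0.930 and 0.934 between Th0 and male and female Th2, where genes are not independent replicates.

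**Figure D5:**
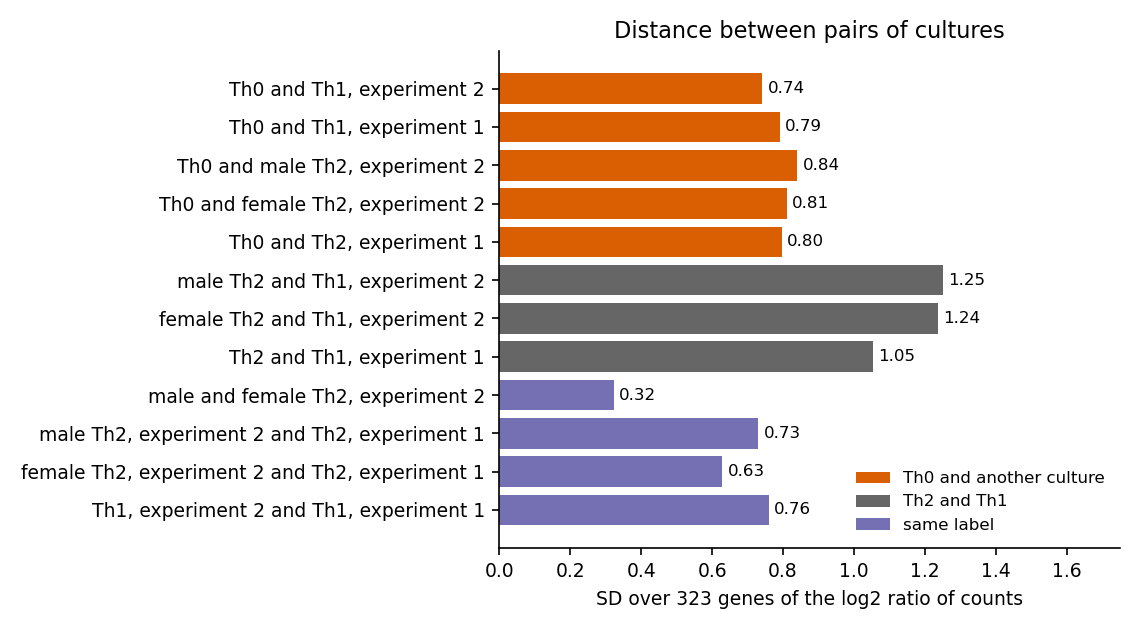
Bars give the distance between 2 cultures as the SD over 323 genes of the log2 ratio of their counts. Th0 stands 0.74 to 0.84 from every other culture, Th2 and Th1 stand 1.05 to 1.25 apart, and cultures of the same label stand 0.32 to 0.76 apart.

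Cultures of the same label in different experiments stood 0.63 to 0.76 apart. The distance was 0.759 between the Th1 cultures of experiments 2 and 1. It was 0.730 and 0.629 between the male and female Th2 cultures of experiment 2 and the Th2 culture of experiment 1. The distance of Th0 from Th1 was thus no larger than that between the 2 Th1 cultures. Th0 stood 0.790 from the Th1 and 0.797 from the Th2 culture of experiment 1. Over 264 genes with at least 50 counts in each culture, the distances of Th0 were 0.642 from Th1, and 0.704 and 0.656 from male and female Th2 of experiment 2.

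The Th2 to Th1 differences of the placed genes were also taken in experiment 1, which held no Th0 culture. A place with Th1 or below all the others did not require such a difference. Btla and Cd80 had almost none in experiment 2 (log2 ratios of Th2 to Th1 -0.03 and 0.02). Of the 109 placed genes, 100 differed in the same direction between the Th2 and Th1 cultures of experiment 1 and 9 in the opposite one (Ccr4, Fcer1a, Igf2r, Il21, Irf4, Nfkbia, Pdcd1lg2, Tigit and Tnfrsf9). For Fcer1a, Ccr9 and Xcl1 both cultures of experiment 1 were at or below the limit, so their direction reflects the limits only. With housekeeping scaling most genes were higher in Th2, with a median log2 ratio of Th2 to Th1 of 0.70 in experiment 2. Of the 315 genes not separated, 250 were higher in Th2 than in Th1. The share of all genes with the same direction in experiment 1 was not counted. In 70 of the 109 the difference was in the same direction and at least 2-fold. When the Th1 and Th2 cultures of experiment 1 were used as the comparators, 40 of the 109 genes kept their place. Tbx21, Il12rb2 and Cxcr3 were at 42.5, 49.6 and 248 scaled counts in Th2 and at 232, 1184 and 678 in Th1 of experiment 1. Il4 was at 2739 in Th2 and 1035 in Th1 of that experiment, so the Th0 value of 1577 in experiment 2 lay between them.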

How the data were processed

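RNA of cultured T cells was hybridized to the NanoString mouse Immunology panel. The authors deposited raw digital counts per probe, not scaled, for 547 endogenous genes, 14 housekeeping genes, 6 positive and 8 negative controls. No genome build is named. Of the probes' accessions, 537 matched RefSeq for GRCm38.p6, used for names and promoter sequences only, and 13 symbols differed. Gene names are given as deposited.

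Counts were divided by housekeeping factors (geometric mean over 7 genes that exceeded the limit in all 12 samples), centered on the 4 cultures. Values at or below the limit were set to it before log2. Alternatives were total counts, TMM factors (edgeR 4.0.16), DESeq2 1.42.0 size factors, positive controls, the 3 Cd3 chain genes, folds of 1.5 and 4, a limit of 3 SDs, no filter, at least 50 counts, subtraction of the negative control mean, each Th2 culture left out, and experiment 1 cultures as comparators. No test was run, since Th0 and Th1 had 1 sample each. The classification recovered all places in tables simulated with known places. Those places lay well past the 2-fold limit, in well-counted genes and with counting noise only. The simulation therefore checked the code and not how reliable places near the limit are. Intervals are exact 95% intervals of a ratio of 2 counts. Scripts ran in Python 3.11.15 (numpy 2.4.6, pandas 2.3.3, scipy 1.17.1, matplotlib 3.10.9) and R 4.3.3.

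The cultures, markers and 25 gene lists were chosen with earlier results of these data known. The rule named Gata3, Il4 and Batf3, up to 8 genes per place that kept it under all scalings, the effector cytokines and lineage factors, and the extremes of the other lists. Genes beyond it (Lair1, Il12rb1, Ifngr1, Stat6, Il6st, Tnfrsf9, Ccl22, Cd40lg, Mx1, Il17rb, Cxcr6, Ccr8, Bcl2, Cish, Socs1, Socs3, Gzma, Klrk1, Cd79b and those named without values) were chosen after their values were seen. Some genes that the rule named are not reported here.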

Additional observations from a re-analysis of the deposited data

How the results depend on the processing

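The main results were counts by the 2-fold limit, so an alternative scaling moves them by construction. With housekeeping scaling there were 57 genes higher and 16 lower in Th0 than in Th1, and 8 higher and 59 lower than in both Th2 cultures. The 4 counts were, in that order, 12, 48, 18 and 28 with total counts, 23, 27, 17 and 30 with TMM factors, and 24, 27, 18 and 28 with DESeq2 size factors. With the Cd3 chain genes 10 genes were higher and 64 lower than Th1, and 37 were lower than Th2. Below all other cultures lay 0 genes with TMM factors, 0 with DESeq2 size factors and 8 with the Cd3 chain genes, which placed 31 genes with Th1. With the same reference the shares of genes with Th0 nearer Th1 were 64.1% and 26.9%, a result added after seeing the data.

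Of the 109 placed genes, 36 kept their place with total counts, 50 with TMM factors, 48 with DESeq2 size factors, 41 with the Cd3 chain genes and 97 with positive controls. A fold limit of 1.5 put 1 gene above and 10 below all the others and 58 between, with 123 higher and 30 lower than Th1 and 19 higher and 125 lower than Th2. A limit of 4 put 0 below, 13 with Th1, 6 with Th2 and 1 between, with 4, 5, 3 and 11 in the comparisons. Without a filter or floor, 1 gene was above and 13 were below the others, 66 sat with Th2 and 21 lay between, with 96, 30, 13 and 89 in the comparisons. After subtraction of the negative control mean, 9 were below the others and 29 below Th1.

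Leaving out a Th2 culture at a time, 64 to 78 genes sat with Th1 and 46 to 47 with Th2, 15 to 18 lay between, 3 to 5 lay below and 0 above. The comparison with Th2 then gave 9 to 13 genes higher and 71 to 90 lower, and the 57 and 16 genes of the comparison with Th1 did not change. Without the male culture 78 genes sat with Th1 and 90 were lower than Th2, and without the female one 5 were below the others and 13 higher than Th2. The shares nearer Th1 were 55.5% to 57.2% and 52.2% to 52.4%.

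With the experiment 1 cultures as comparators, 2 genes lay above and 7 below the others, 89 with Th1 and 6 between, with 30 higher and 31 lower than Th1 and 96 lower than Th2, and the first share was 77.6%. The log2 ratio then changed sign for Th0 over Th1 in Cish (-0.18), Il2ra (-0.78), Lif (-1.17), Socs3 (-0.34), Tigit (-0.12) and Tnfrsf9 (-0.64), and for Th0 over Th2 in Btla (0.16), Eomes (-0.25) and H2-DMb2 (0.54). Within experiment 2, of 87 gene ratios of at least 2-fold with housekeeping scaling, only that of Ccr8 changed sign, to 0.46 over the Th2 mean with no filter and to 0.079 without the male culture, against -3.05 without the female one. Of 125 smaller gene ratios, 45 changed sign under 1 or more alternatives. The cause was not tested.

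The distance of Th0 was 0.742 from Th1 and 0.825 from the 2 Th2 cultures on average. It was 0.642 and 0.680 over genes with at least 50 counts, and 0.542 and 0.616 as a median absolute deviation. No paired analysis was possible because Th0 and Th1 had 1 sample each and no test was run. Th0 was represented by 1 culture, so its own spread is unknown. Genes under about 50 counts carry wide counting intervals, and a value at the limit gives only a bound.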
